A study of Homo sapiens with 6 samples.

Results

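RNA levels of 10 genes that encode subunits of the Polycomb repressive complexes were examined in 2 Ewing sarcoma cell lines treated with THZ1, a covalent inhibitor of the transcriptional kinase CDK7. The genes were chosen by name, with earlier results of these data known. Those of Polycomb repressive complex 2 (PRC2) were EZH2, EZH1, SUZ12, EED and JARID2. Those of Polycomb repressive complex 1 (PRC1) were BMI1, RING1, RNF2, CBX2 and CBX8. All 10 of 10 were found, each in a single entry, among 27420 genes with a deposited expression value. The cell lines were A673 and SKNMC, both established lines of this tumor, in which a fusion of EWS with an ETS factor, most often FLI1, drives the disease. Each line was treated for 6 h with 50 nM THZ1, with 200 nM THZ1 or with DMSO, the vehicle that served as its control. RNA-seq gave 6 libraries, 1 for each condition, so there was no replicate spread to set a difference against, and no p-value is given. Both doses of a line were compared with the same DMSO library, so an error in that library would move both comparisons together.

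PRC2 places methyl groups on histone H3 at the K27 position, and PRC1 adds ubiquitin to histone H2A; both marks accompany the silencing of developmental genes. Within PRC2, EZH2 or its relative EZH1 is the methyltransferase, SUZ12 and EED are the scaffold and the reader that the enzyme needs for activity, and JARID2 is an accessory subunit that helps bring the complex to chromatin. Within PRC1, RING1 and RNF2 are alternative ubiquitin ligases, BMI1 is a partner that stimulates the ligase, and CBX2 and CBX8 hold chromodomains that bind methylated H3. In Ewing sarcoma, EZH2 and BMI1 are known for supporting tumor growth, and EZH2 is known as a gene activated by EWS-FLI1.

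The expression values were FPKM, which scale the fragments of a gene by the length of its transcript and by the sequencing total. Levels can thus be set side by side between genes of a library. Each value is a share of its library, so comparisons between libraries depend on the scaling. Every one of the 10 genes was above 1 FPKM in all 6 libraries. Genes above 1 FPKM in the DMSO library of a line are called active here, and there were 11077 of them in A673 and 11896 in SKNMC. FPKM values hold no read numbers. From the most frequent ratio of low values, the THZ1 libraries had 88.9% to 96.6% of the depth of their DMSO library, a rough figure because 1.85% to 2.62% of the low values sat at that ratio. All 10 markers of Ewing sarcoma that were looked at, FLI1, CD99 and NKX2-2 among them, were active in both lines. Of 7 listed markers of other cell types, COL1A2, a collagen chain, was active in both lines at 62.6 to 99.4 FPKM, and PTPRC, a leukocyte phosphatase, was at 7.90 to 13.1 FPKM in the SKNMC libraries and at most 0.0291 FPKM in A673; the other 5 were below 1 FPKM in every library, and whether these values bear on the Polycomb genes was not tested.

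The start regions of 4 PRC2 genes are shown because their transcripts took different courses under THZ1: SUZ12 was lower at both doses, EED fell mostly between 50 nM and 200 nM, JARID2 was not lower at 50 nM, and EZH2 is the most abundant of the 5. The sequences are from RefSeq on GRCh38.p14, cover 250 bases before and 50 bases after the start, and are written 5′ to 3′ on the strand of the gene. They lie at chr17:31936757-31937056 on the plus strand, chr11:86244503-86244802 on the plus strand, chr6:15245819-15246118 on the plus strand and chr7:148884242-148884541 on the minus strand. Capitals mark matches on either strand to the E2F letters TTTCCCGC, TTTCGCGC, TTTGCCGC or TTTGGCGC, to the CCAAT box CCAAT and to the TATA box TATAAA.
SUZ12: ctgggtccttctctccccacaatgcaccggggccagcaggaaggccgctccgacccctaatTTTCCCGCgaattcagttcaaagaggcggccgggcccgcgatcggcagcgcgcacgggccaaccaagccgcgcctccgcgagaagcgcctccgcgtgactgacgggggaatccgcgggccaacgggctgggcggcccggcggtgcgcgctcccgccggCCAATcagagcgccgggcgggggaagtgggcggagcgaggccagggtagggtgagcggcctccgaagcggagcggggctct
EED: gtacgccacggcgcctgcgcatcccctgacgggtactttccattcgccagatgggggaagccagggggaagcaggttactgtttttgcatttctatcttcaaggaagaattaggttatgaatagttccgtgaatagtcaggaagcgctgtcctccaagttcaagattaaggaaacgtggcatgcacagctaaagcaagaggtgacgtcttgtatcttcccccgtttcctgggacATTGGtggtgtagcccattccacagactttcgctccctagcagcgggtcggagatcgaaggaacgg
JARID2: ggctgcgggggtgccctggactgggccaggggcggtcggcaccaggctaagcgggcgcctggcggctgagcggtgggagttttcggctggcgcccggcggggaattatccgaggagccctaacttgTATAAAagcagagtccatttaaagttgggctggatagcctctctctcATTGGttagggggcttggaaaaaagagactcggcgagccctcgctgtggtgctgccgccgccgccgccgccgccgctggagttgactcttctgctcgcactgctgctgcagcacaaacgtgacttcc
EZH2: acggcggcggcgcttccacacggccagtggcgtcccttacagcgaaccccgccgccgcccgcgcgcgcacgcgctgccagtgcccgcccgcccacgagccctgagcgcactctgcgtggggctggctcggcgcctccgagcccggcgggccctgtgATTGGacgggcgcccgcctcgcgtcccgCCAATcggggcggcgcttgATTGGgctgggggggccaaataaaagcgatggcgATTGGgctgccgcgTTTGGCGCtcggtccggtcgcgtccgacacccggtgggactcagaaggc

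Promoter sequences were found for 8 of the 10 genes, CBX2 and CBX8 being without an entry. The E2F letters were in the windows of EZH2, EZH1 and SUZ12, and in 3.33% of all 27305 promoters of the same length. CCAAT was in those of EZH2, SUZ12, EED and JARID2, against 35.7% of all promoters, and EZH2 held 4 copies of it. TATAAA was in that of JARID2 alone among the 8, against 12.0% of all promoters. The ETS letters CCGGAAGT and the repeat GGAAGGAA, whose core letters GGAA are those bound by ETS factors, were in none of the 8 windows and in 4.44% and 3.58% of all promoters. The EED window had a GC content of 52.3% and 16 CpG, the lowest of the 8, while the other 7 ranged from 64.0% to 74.7% GC with 24 to 46 CpG, and the median over all promoters was 58.3% with 14 CpG. A match is a description of these letters in this window and not evidence of binding.

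With DMSO, the genes covered a wide range of levels, and the order differed between the lines. In A673 the most abundant was BMI1 at 50.6 FPKM, followed by EZH2 at 41.4 FPKM, EED at 22.2, RNF2 at 18.3, RING1 at 16.9, SUZ12 at 15.7, CBX2 at 10.4, JARID2 at 6.94, CBX8 at 6.55 and EZH1 at 3.64 FPKM. In SKNMC the most abundant was EZH2 at 84.3 FPKM, followed by SUZ12 at 32.8, RNF2 at 28.4, EED at 27.2, RING1 at 25.7, CBX2 at 23.5, BMI1 at 23.0, JARID2 at 16.8, CBX8 at 11.4 and EZH1 at 11.2 FPKM. Without replicates, neighbours in these orders cannot be separated. EZH1 had the lowest level of the 10 in both lines, and EZH2 exceeded it 11.4-fold in A673 and 7.51-fold in SKNMC.

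Between the lines with DMSO, 9 of the 10 genes had a higher level in SKNMC and 5 of them, EZH2, EZH1, SUZ12, JARID2 and CBX2, were at least 2-fold higher on the scale of log2(FPKM + 1). Among 12399 genes active in either line, 56.0% were higher in SKNMC and 15% were at least 2-fold higher. EZH1 had the largest ratio, at 3.08 times its A673 level, EZH2 was at 2.03 times and EED at 1.23 times. BMI1 was the exception, with 23.0 FPKM in SKNMC against 50.6 FPKM in A673, a log2 ratio of -1.10. The median log2 ratio of SKNMC to A673 was 0.86 over the 10 genes and 0.11 over the 12399. When the libraries were instead scaled on ribosomal protein genes, EED was lower in SKNMC, the other 9 genes kept their side, and 0 of the 10 were at least 2-fold higher in SKNMC, against 10.0% of the 12399 genes. EZH2 then had a log2 ratio of 0.49 and EZH1 of 0.97. With the common sum, EZH2 was the one of the 5 that fell short of 2-fold, at 0.994.

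**Figure D1:**
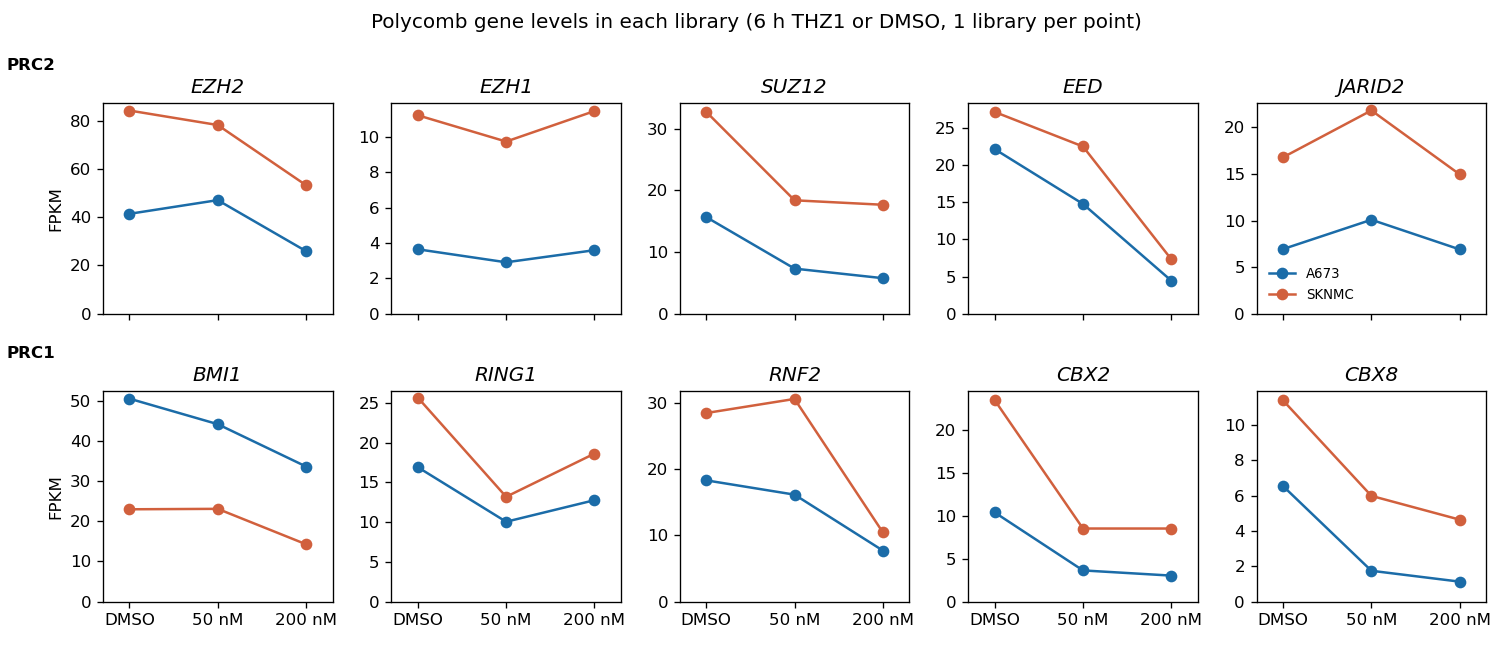
Levels of the 10 Polycomb genes in FPKM (y axis, linear, from 0) with DMSO, 50 nM and 200 nM THZ1 (x axis) in A673 (blue) and SKNMC (orange), PRC2 genes above and PRC1 genes below, each point being 1 library. CBX2, for example, is at 10.4, 3.63 and 3.02 FPKM in A673 and at 23.5, 8.52 and 8.52 FPKM in SKNMC. BMI1 alone has A673 above SKNMC.

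The question of the THZ1 comparisons was which transcripts are sensitive to CDK7 inhibition at a dose that limits and a dose that strongly reduces phosphorylation of RNA polymerase II. Each change against DMSO is expressed as the log2 ratio of FPKM after adding 1 to both values, a scale on which weakly expressed genes move less, and a gene is called decreased when it is at least 2-fold lower on this scale. At 50 nM, 3 of the 10 Polycomb genes were decreased in A673, SUZ12, CBX2 and CBX8, against 15.9% of all active genes, and 1 of 10, CBX2, in SKNMC, against 15.8%. At 200 nM, 5 of 10 were decreased in A673, SUZ12, EED, RNF2, CBX2 and CBX8, against 25.3% of active genes, and 4 of 10 in SKNMC, the same without SUZ12, against 27.3%. None of the 10 was increased at least 2-fold in any of the 4 comparisons, where 0.343% (low dose) and 0.126% (high dose) of active genes were in A673 and 0.471% and 0.462% in SKNMC. CBX2 was the single member decreased in all 4 comparisons, as were 8.70% of the 10574 genes active in both lines. With scaling to the 75th percentile of active genes CBX2 was at -0.84 in SKNMC at 200 nM, so 0 members were decreased in all 4, against 4.38% of those genes, and with scaling on ribosomal protein genes 3 were, SUZ12, CBX2 and CBX8, against 16.2%. With the 75th percentile scaling, the decreased genes at 200 nM were 3 in A673 and 1 in SKNMC, against 16.1% and 13.0% of active genes, and with the ribosomal protein scaling those in SKNMC were 4 at 50 nM and 7 at 200 nM, against 26.5% and 50.3%. At a threshold of 1.5-fold, the decreased genes were 4 and 6 of 10 in A673 (low and high dose), against 31.8% and 41.1% of active genes, and 4 and 7 in SKNMC, against 33.5% and 48%. In RNA from bulk cells, fewer cells that express a gene and less RNA per cell cannot be told apart.

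Over the 10 genes, the low dose gave a median log2 fold change of -0.40 in A673 and -0.22 in SKNMC, beside -0.27 and -0.32 over all active genes. The high dose gave -0.90 and -0.75, beside -0.40 and -0.55 over all active genes. The 5 PRC1 genes had lower medians than the 5 PRC2 genes in each comparison. For PRC1 the low dose gave -0.70 (A673) and -0.83 (SKNMC) and the high dose -1.15 and -1.14, while for PRC2 the low dose gave -0.25 and -0.19 and the high dose -0.66 and -0.65. These medians cover unlike members, and in A673 at 200 nM the log2 fold changes ran from -2.09 to -0.0068 for PRC2 and from -1.83 to -0.38 for PRC1. The summed level of the 10 genes went from 192.6 FPKM with DMSO to 158.0 and 104.9 FPKM in A673 and from 284.3 to 232.1 and 161.2 FPKM in SKNMC.

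**Figure D2:**
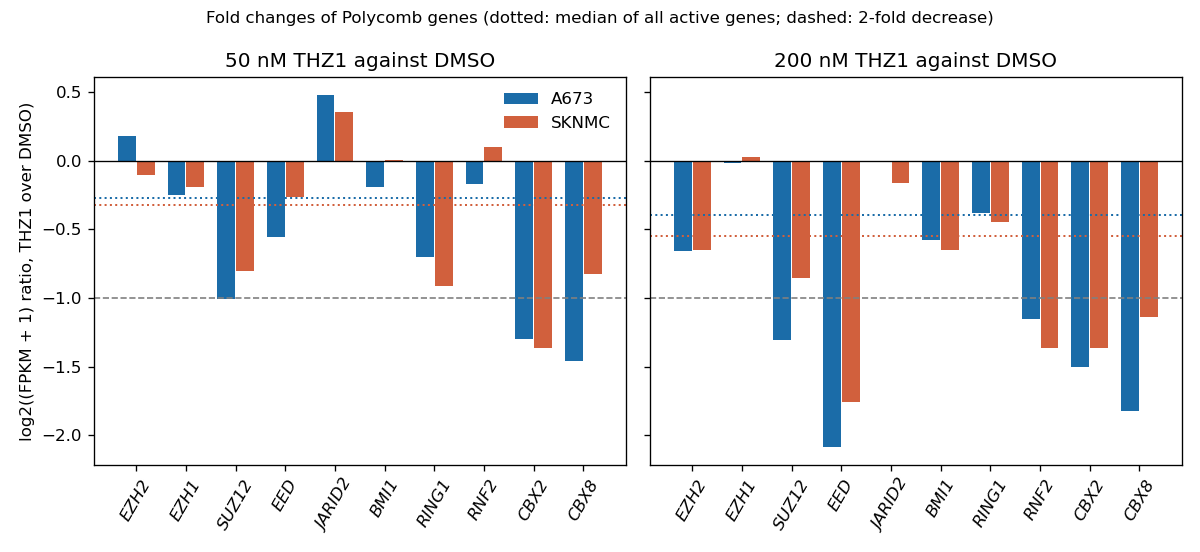
Log2 ratio of (FPKM + 1) with THZ1 to that with DMSO (y axis) for each Polycomb gene (x axis) at 50 nM (left) and 200 nM (right), bars in blue for A673 and in orange for SKNMC, with no error bars since there is 1 library per condition. CBX2 is below the dashed 2-fold line in all 4 comparisons, though not in SKNMC at 200 nM under the 75th percentile scaling (-0.84), EED is the lowest bar in both lines at 200 nM at -2.09 and -1.76, and JARID2 is the highest at 50 nM; dotted lines are the medians of all active genes.

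The methyltransferases of PRC2 were among the less affected members. Listed in the order DMSO, 50 nM and 200 nM here and for the genes that follow, EZH2 had 41.4, 47.1 and 25.9 FPKM in A673 and 84.3, 78.3 and 53.3 FPKM in SKNMC. Its level at 50 nM was 113.7% and 92.9% of DMSO, and at 200 nM it was 62.6% of DMSO in A673 and 63.2% in SKNMC, log2 fold changes of -0.66 and -0.65. At 200 nM, 38.0% of active genes in A673 and 44.2% in SKNMC had a lower log2 fold change than EZH2, which placed it near the middle of the active genes. The call for EZH2 at 200 nM depended on the scaling, with log2 fold changes of -1.04 and -1.22 and thus past 2-fold in both lines under the ribosomal protein scaling, and of -0.29 and -0.09 under the 75th percentile scaling. EZH1 had 3.64, 2.91 and 3.59 FPKM in A673 and 11.2, 9.74 and 11.5 FPKM in SKNMC. At 200 nM it stood at 98.6% and 102.1% of DMSO, above the log2 fold changes of 69.4% and 82.1% of active genes. In A673, EZH2 was 11.4 times EZH1 with DMSO, 16.2 times at 50 nM and 7.22 times at 200 nM, and it was 7.51, 8.04 and 4.65 times in SKNMC. In both lines the ratio was lowest at 200 nM, and EZH2 remained the more abundant of the pair in every library.

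The obligate partners of the methyltransferase had lower log2 fold changes than EZH2 and EZH1 in each comparison, by unlike margins. EED, which binds the methyl mark and stimulates the enzyme, had 22.2, 14.8 and 4.44 FPKM in A673 and 27.2, 22.5 and 7.33 FPKM in SKNMC. At 50 nM it kept 66.7% and 82.9% of its DMSO level, and at 200 nM 20.0% and 26.9%, log2 fold changes of -2.09 and -1.76. At 50 nM, 33.5% of active genes in A673 and 54.5% in SKNMC had a lower value, and at 200 nM only 3.78% and 6.52%. On the scale with 1 added to FPKM, EED was the lowest of the 10 genes at 200 nM in both lines. In A673, however, CBX8 kept less of its DMSO level at 200 nM, 17.2%. With a pseudocount of 0.1, CBX8 was there at -2.44 and EED at -2.29. SUZ12, the scaffold, had 15.7, 7.31 and 5.76 FPKM in A673 and 32.8, 18.4 and 17.7 FPKM in SKNMC. Most of its loss was present at 50 nM, where it kept 46.6% of its DMSO level in A673 and 56.2% in SKNMC, followed by 36.7% and 53.9% at 200 nM. The A673 value at 50 nM lay just past the 2-fold line, and the SKNMC values lay inside it. At 50 nM and 200 nM, 15.7% and 16.3% of active genes in A673 were below SUZ12. In SKNMC 23.1% and 33.7% were. The annotation names pseudogenes of EZH2, SUZ12, EED, BMI1 and RNF2, which have no entry in the table; fragments that fit both a gene and its copy could have been assigned to either, so the levels of these 5 genes carry that uncertainty.

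JARID2 took the opposite course at 50 nM. It had 6.94, 10.1 and 6.90 FPKM in A673 and 16.8, 21.8 and 14.95 FPKM in SKNMC. At 50 nM it was at 145.4% and 130.0% of DMSO, with log2 fold changes of 0.48 and 0.36 that exceeded those of 97.0% and 93.1% of active genes, and it was the highest of the 10 in both lines. At 200 nM it was back at 99.5% and 89.0% of DMSO. The difference at 50 nM was under 2-fold in both lines, and its log2 value over the alternative scalings ran from 0.28 to 0.70 in A673 and from 0.01 to 0.64 in SKNMC.

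Among the PRC1 genes at 50 nM, CBX8 and CBX2, both chromodomain subunits, had the lowest log2 fold changes in A673, and CBX2 and RING1 had them in SKNMC. CBX2 had 10.4, 3.63 and 3.02 FPKM in A673 and 23.5, 8.52 and 8.52 FPKM in SKNMC. Its log2 fold change was -1.30 and -1.50 in A673 and -1.36 and -1.36 in SKNMC, so that in SKNMC the higher dose gave the same level as the lower. CBX8 had 6.55, 1.74 and 1.13 FPKM in A673 and 11.4, 5.99 and 4.64 FPKM in SKNMC, log2 fold changes of -1.46 and -1.83 in A673 and -0.83 and -1.14 in SKNMC. At 50 nM, 6.11% of active genes in A673 and 22.1% in SKNMC were below CBX8, and 8.79% and 7.12% were below CBX2. The 2 genes lie next to each other on chromosome 17 of hg19, CBX2 at chr17:77751930-77761782 on the plus strand and CBX8 at chr17:77765930-77775482 on the minus strand, with 4.15 kb between them.

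The alternative ligases RNF2 and RING1 changed in different steps of the dose series. RNF2 had 18.3, 16.1 and 7.68 FPKM in A673 and 28.4, 30.5 and 10.4 FPKM in SKNMC. It kept 88.2% and 107.5% of its DMSO level at 50 nM and 42.0% and 36.7% at 200 nM, log2 fold changes of -1.15 and -1.37 at the higher dose. RING1 had 16.9, 10.0 and 12.8 FPKM in A673 and 25.7, 13.2 and 18.6 FPKM in SKNMC. It was lower at 50 nM, with 59.4% and 51.4% of DMSO, than at 200 nM, with 75.4% and 72.5%. The levels of the 2 ligases were close to each other with DMSO, RNF2 being 1.08 times RING1 in A673 and 1.11 times in SKNMC. At 50 nM the ratio was 1.60 and 2.32, and at 200 nM it was 0.602 and 0.559, so the order of the pair turned between the doses in both lines.

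BMI1, the partner of the ligase, had 50.6, 44.3 and 33.7 FPKM in A673 and 23.0, 23.1 and 14.3 FPKM in SKNMC. At 50 nM it was at 87.4% and 100.5% of DMSO and at 200 nM at 66.5% and 62.1%, log2 fold changes of -0.57 and -0.65. Its course over the 4 comparisons was closest to that of EZH2, with a Euclidean distance of 0.40 between the 4 log2 fold changes, the smallest among all pairs of the 10 genes. The table also lists the read-through gene COMMD3-BMI1, which overlaps BMI1 on the same strand, at 21.7, 16.8 and 10.2 FPKM in A673 and 9.35, 7.41 and 3.80 FPKM in SKNMC. The read-through gene was lower by 1.02 and 1.11 on the log2 scale at 200 nM, and fragments within the shared exons cannot be told apart between the 2 entries. PCGF2, the closest relative of BMI1, had 10.5 FPKM in A673 and 21.4 FPKM in SKNMC with DMSO, so BMI1 was 4.81 times as abundant in A673 and 1.08 times in SKNMC.

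**Figure D3:**
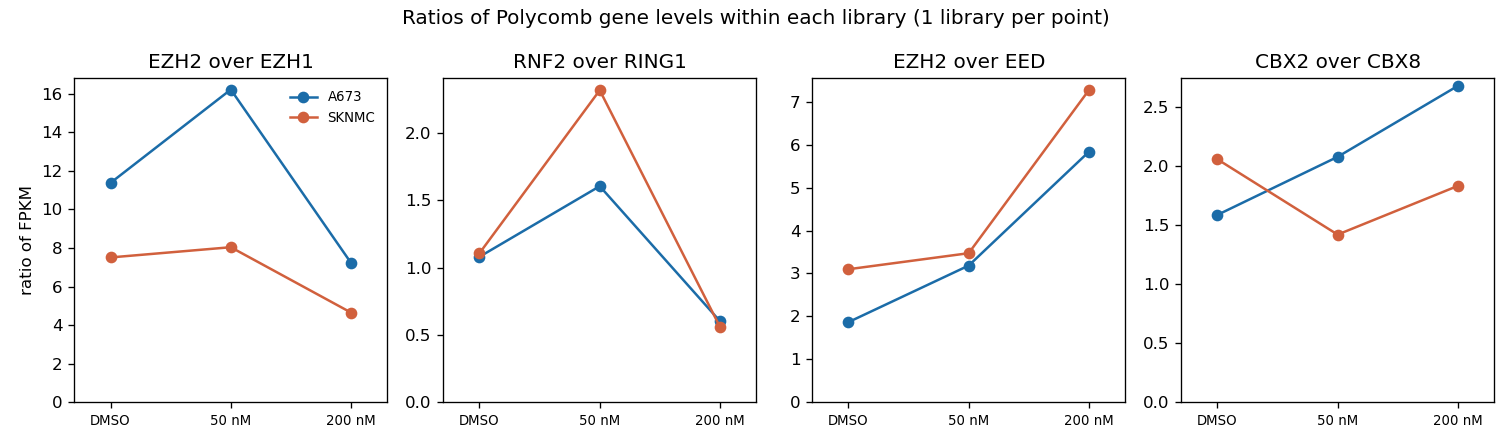
Ratios of the FPKM of gene pairs within a library (y axis, linear, from 0) with DMSO, 50 nM and 200 nM THZ1 (x axis) in A673 (blue) and SKNMC (orange), 1 library per point. RNF2 over RING1 goes from 1.08 to 1.60 and 0.602 in A673 and from 1.11 to 2.32 and 0.559 in SKNMC, EZH2 over EED is highest at 200 nM in both lines, and CBX2 over CBX8 moves differently in the lines.

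The step from 50 nM to 200 nM differed between the genes. EED was 30.0% of its 50 nM level in A673 and 32.5% in SKNMC, log2 ratios of -1.54 and -1.50, and 1.80% and 2.08% of active genes were lower. RNF2 was at 47.7% and 34.1%, log2 ratios of -0.98 and -1.47. EZH2 was at 55.1% and 68.1% and BMI1 at 76.1% and 61.8% of the 50 nM level. SUZ12 was at 78.8% and 96.1%, and CBX2 was at 83.3% in A673 and at 8.52 FPKM with both doses in SKNMC. RING1 and EZH1 were higher at 200 nM than at 50 nM in both lines, RING1 by log2 ratios of 0.32 and 0.47, which exceeded 85.6% and 93.3% of active genes, and EZH1 by 0.23 and 0.22. In all, 8 of the 10 genes were lower at 200 nM than at 50 nM in each line, against 51.7% of active genes in A673 and 62.0% in SKNMC, although in SKNMC CBX2 and SUZ12 lay above 0 with the 75th percentile scaling and CBX2 with the common sum. At least 2-fold lower were EED in A673 and EED and RNF2 in SKNMC, against 7.44% and 8.39% of active genes. RNF2 in A673 lay just inside the 2-fold line, and its call depended on the setting. It was at -1.06 with a pseudocount of 0.1, -1.01 with the common sum and -1.13 with the ribosomal protein scaling. With the 75th percentile scaling it was at -0.87.

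**Figure D4:**
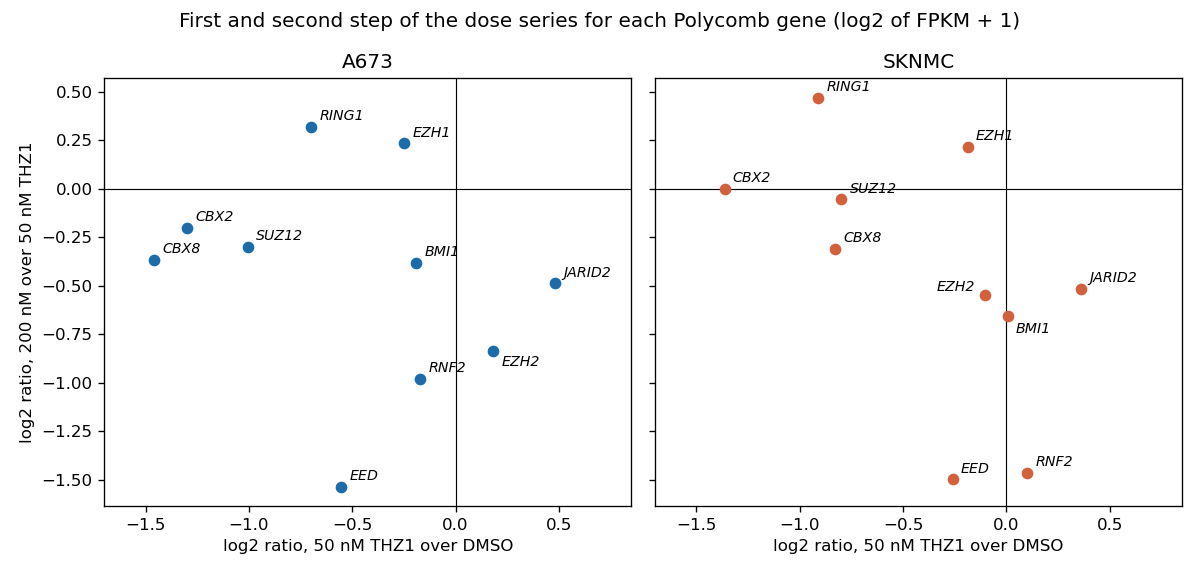
Log2 ratio of 200 nM to 50 nM THZ1 (y axis) against that of 50 nM THZ1 to DMSO (x axis), on (FPKM + 1), for the 10 Polycomb genes in A673 (left) and SKNMC (right); the 50 nM library enters both axes. EED and RNF2 sit at the bottom, at -1.54 and -0.98 in A673 and at -1.50 and -1.47 in SKNMC, CBX2, CBX8 and SUZ12 sit to the left, RING1 sits above 0 and to the left, and JARID2 is the point farthest to the right in both lines.

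The proportions within PRC2 changed along with these courses. In A673, EZH2 was 1.87 times EED with DMSO, 3.18 times with 50 nM and 5.84 times with 200 nM, and it was 3.10, 3.47 and 7.27 times in SKNMC. EZH2 was 2.64, 6.44 and 4.50 times SUZ12 in A673 and 2.57, 4.25 and 3.01 times in SKNMC. These ratios do not depend on how the libraries are scaled, since both genes of a pair are divided by the same factor. They describe RNA after 6 h and not the amounts of the proteins, which were not analysed here.

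The genes differ widely in architecture. On hg19, JARID2 on chromosome 6 spans 275.7 kb, more than 96.2% of the genes active in A673, while RING1, also on chromosome 6, spans 4.23 kb, CBX8 9.55 kb, CBX2 9.85 kb and BMI1 10.3 kb. EED on chromosome 11 spans 34.3 kb, EZH1 on chromosome 17 44.8 kb, RNF2 on chromosome 1 57.2 kb, SUZ12 on chromosome 17 64.0 kb and EZH2 on chromosome 7 76.9 kb. The main transcripts of CBX2 and CBX8 in GENCODE have 5 exons each, those of RING1 and RNF2 have 7, and those of the 5 PRC2 genes have 12 to 21. Across all active genes at 50 nM, those under 10 kb had a median log2 fold change of -0.38 in A673 and -0.41 in SKNMC and those of 200 to 400 kb had -0.06 and -0.14. At 50 nM, CBX2, CBX8 and RING1 had log2 fold changes below the median of genes under 10 kb in both lines, and JARID2 was above the upper quartile of its class, which lay at 0.19 and 0.14. BMI1, also short, had -0.19 and 0.0067, above the medians of -0.37 and -0.44 of genes of 10 to 30 kb, and in SKNMC above their upper quartile of -0.06. The corresponding medians with 200 nM were -0.29 and -0.45 under 10 kb and -0.28 and -0.33 at 200 to 400 kb. Span is given here as a description, and its part in the fold changes was not tested.

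Other genes of the 2 complexes were taken from lists chosen by function. Of 8 other PRC2 subunits, all were active in both lines, and 0 were decreased at 50 nM in either line, where 15.9% and 15.8% of all active genes were, and 2 in A673 and 3 in SKNMC at 200 nM, against 25.3% and 27.3%. AEBP2, a DNA-binding accessory subunit, had 19.2, 10.8 and 5.13 FPKM in A673 and 17.2, 11.0 and 6.33 FPKM in SKNMC, log2 fold changes of -1.72 and -1.31 at 200 nM. MTF2, which helps bring PRC2 to CpG islands, had -1.66 and -1.53. RBBP7, a histone chaperone of several complexes, had 0.32 and -0.04 at 200 nM. LCOR had 6.23, 11.1 and 6.61 FPKM in A673 and 6.46, 11.5 and 7.36 FPKM in SKNMC, so it was highest at 50 nM in both lines, as JARID2 was.

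Of 24 other PRC1 subunits, 23 were active in A673 and 24 in SKNMC. At 50 nM, 5 were decreased in A673 and 2 in SKNMC, against 15.9% and 15.8% of all active genes, and at 200 nM 11 and 12 were, against 25.3% and 27.3%, with medians of -0.94 and -0.97. CBX6, another chromodomain protein, was decreased in all 4 comparisons, with 29.0, 9.62 and 11.8 FPKM in A673 and 28.3, 6.19 and 7.92 FPKM in SKNMC, but not in all 4 under the 75th percentile scaling. E2F6, a repressor found in a variant PRC1, was the lowest of the list at 200 nM in both lines, with log2 fold changes of -2.03 and -2.23. SCML1 was the highest at both doses in both lines and was increased at least 2-fold at 50 nM in SKNMC, where it went from 25.7 to 59.0 FPKM, a log2 fold change of 1.17.

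Of 7 enzymes and partners that oppose the Polycomb marks, 6 were active in each line, and in each line 50 nM lowered 2 of them at least 2-fold and 200 nM lowered 3, against 15.9% and 25.3% of active genes in A673 and 15.8% and 27.3% in SKNMC. ASXL2, a cofactor of the H2A deubiquitinase BAP1, was decreased in all 4 comparisons, with log2 fold changes of -1.57 and -1.48 in A673 and -1.67 and -1.53 in SKNMC. BAP1 was the highest of the list at 200 nM, at -0.16 and -0.29. The H3K27 demethylases differed in their course: KDM6A had 9.64, 9.94 and 2.93 FPKM in A673 and 18.4, 23.4 and 7.29 FPKM in SKNMC, while KDM6B had 3.92, 0.991 and 2.59 FPKM in A673 and 7.35, 2.58 and 3.06 FPKM in SKNMC. KDM6A was thus lower only at 200 nM and KDM6B was lowest at 50 nM in both lines.

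Of 13 genes known from textbooks as Polycomb targets, 3 were active in A673 and 5 in SKNMC. At 50 nM, 0 of the active ones were decreased in A673 and 0 in SKNMC, against 15.9% and 15.8% of all active genes. The added 1 weighs on these low levels. On FPKM alone, PAX6 and WT1 in A673 and GATA4 in SKNMC were past 2-fold lower at 50 nM. At 200 nM, 3 were decreased in A673 and 3 in SKNMC, against 25.3% and 27.3%. PAX6 was the lowest of the active ones in A673 at 200 nM, with 9.18, 4.27 and 1.91 FPKM, and GATA4 in SKNMC, with 2.64, 0.993 and 0.371 FPKM. On the scale with 1 added, WT1 was the highest of the 3 active in A673 at 200 nM, at -1.16. WT1 had 2.64, 0.951 and 0.629 FPKM there. CDKN1C was the highest of the 5 active in SKNMC at 200 nM, at 0.72, with 7.61, 13.0 and 13.1 FPKM. None of the 13 was increased at least 2-fold in either line at either dose. Among all active genes 0.126% to 0.471% were, so a count of 0 does not set these genes apart.

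**Figure D5:**
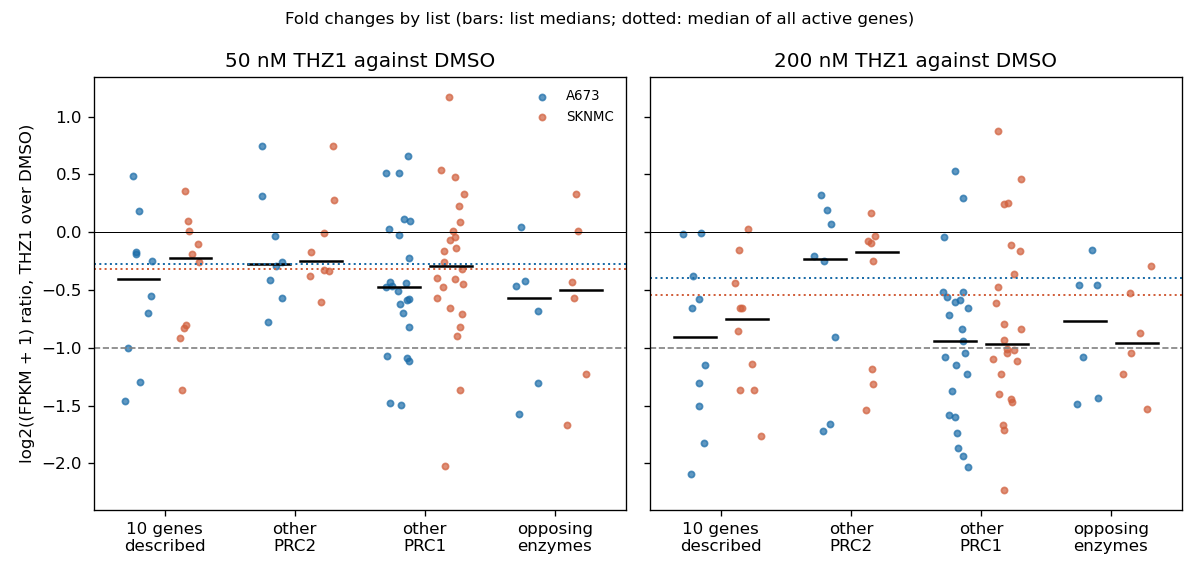
Log2 ratio of (FPKM + 1) with THZ1 to that with DMSO (y axis) for the active genes of 4 lists (x axis) at 50 nM (left) and 200 nM (right), in blue for A673 and in orange for SKNMC, each point being 1 gene and each bar the median of a list; points are spread sideways for legibility. At 200 nM the medians of the 10 genes described, -0.90 and -0.75, and of the other PRC1 subunits, -0.94 and -0.97, lie below the dotted medians of all active genes, -0.40 and -0.55, and those of the other PRC2 subunits, -0.23 and -0.17, lie above them.

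For each of the 10 genes, the 3 genes closest in their 4 log2 fold changes were sought among 10568 genes active in both lines and above 0 in all libraries. The closest match of all was UTP14C for CBX2, at a Euclidean distance of 0.03, followed by the zinc finger genes ZBTB21 at 0.15 and ZNF773 at 0.15. CBX8 was closest to ZNF250 at 0.16, JARID2 to GPCPD1 at 0.06, EED to FBXO45 at 0.13, SUZ12 to RBM4B at 0.13 and EZH2 to CAMK1D at 0.11. RNF2 was closest to HMGXB3 at 0.10, RING1 to SYNE3 at 0.08, BMI1 to VPS53 at 0.08 and EZH1 to C19orf53 at 0.09. The 4 comparisons behind a distance rest on 6 libraries, and both doses share the DMSO library of the line.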

How the data were processed

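RNA-seq was measured in 6 libraries, 1 per condition, and conditions were taken from the sample titles, which spell SKNMC as SKMNC. The authors read TruSeq libraries on a HiSeq2000 as 100-bp pairs, mapped them with STAR to hg19 using Ensembl 75 junctions, and deposited FPKM values per gene; their methods name StringTie and the submitters' processing notes name Cufflinks. The title of the table speaks of average expression, and whether a column pools several cultures is not given in the sources used here. The table lists 20311 protein-coding and 7109 lincRNA genes. Its 4 columns of the authors' log2 fold changes were not used.

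Log2 ratios were computed on FPKM with a pseudocount of 1 in Python 3.11.15 with pandas 2.3.3. Genes above 1 FPKM with DMSO were active, and 2-fold was the threshold. No test was run, since each line has 1 library per condition; a fit across the lines, which would take them as replicates of a dose, was not run. FPKM gives no counts, so no interval for counting error is given. The ratio step was tested on simulated data. Gene models came from GENCODE v44lift37 on GRCh37, the build of the table. Exons are those of the canonical transcript. Alternatives were a pseudocount of 0.1, 3 scalings (common sum, 75th percentile of active genes, median of 78 ribosomal protein genes), all listed genes, and a 1.5-fold threshold. The named genes are the 10 members and, from each list of other Polycomb subunits, opposing enzymes and target genes, those decreased in all 4 comparisons or lowest or highest at 200 nM; PCGF2, COMMD3-BMI1, KDM6A, KDM6B, CDKN2A and FLI1 were named after their values were seen. Marker genes are given only as a check of the cultures. The members and lists were chosen with earlier results of these data known.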

Additional observations from a re-analysis of the deposited data

Results flagged for a closer look

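Between the cell lines, EZH2, RNF2, BMI1 and EZH1 had log2 fold changes of opposite sign at the same dose. How many of all active genes did so was not computed. At 50 nM, EZH2 was at 0.18 in A673 and -0.11 in SKNMC, RNF2 at -0.17 and 0.10, and BMI1 at -0.19 and 0.0067. At 200 nM, EZH1 was at -0.016 in A673 and 0.028 in SKNMC. With a single library per condition, these differences between A673 and SKNMC were not tested. Under scaling to the 75th percentile EZH2, RNF2 and BMI1 were above 0 in both lines at 50 nM and EZH1 was above 0 in both lines at 200 nM, and under the ribosomal protein scaling all 4 were below 0 in both lines at those doses.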

How the results depend on the processing

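A pseudocount of 0.1 changed 0 of 40 signs against DMSO and none of the 4 counts of decreased genes, and the common sum changed 0 of 40 signs. Under the common sum, SUZ12 at 50 nM in A673 was no longer past 2-fold, which left 2 decreased genes. With all listed genes the counts and medians of the 10 were the same by construction. With the 75th percentile of active genes, 9 of 40 signs changed, the decreased genes at 200 nM were 3 in A673 (EED, CBX2 and CBX8) and 1 in SKNMC (EED), and the medians over the 10 genes were -0.18 and -0.55 in A673 and 0.049 and -0.21 in SKNMC, at 50 nM and 200 nM. The SKNMC median at 50 nM thus changed sign. With the ribosomal protein median, 4 of 40 signs changed, the decreased genes were 4 in SKNMC at 50 nM and 7 at 200 nM, EZH2 being gained at 200 nM in both lines and SUZ12 and BMI1 in SKNMC, and the medians were -0.63 and -1.29 in A673 and -0.56 and -1.31 in SKNMC. With a 1.5-fold threshold, 4 genes were decreased in SKNMC at 50 nM and 7 at 200 nM, against 33.5% and 48% of active genes. In SKNMC at 200 nM, the 75th percentile moved the median of all active genes from -0.55 to -0.07. The ribosomal protein median moved it to -1.01. Both scalings move all genes of a library together, but the pseudocount is added afterwards, so genes with nearly equal values can change places. In SKNMC at 200 nM, RNF2 was at -1.366 and CBX2 at -1.364, and under the 75th percentile they were at -0.835 and -0.841. CBX2 was past 2-fold at 50 nM in both lines under all 5 settings of pseudocount and scaling, and EED at 200 nM likewise. Of the ribosomal protein genes, the share of the listed FPKM was 13.6% in A673 with DMSO and 17.7% at 200 nM, and 19.0% and 29.7% in SKNMC. FPKM is a share of the library, so an even loss of RNA from all genes would leave no trace. The cause of the moves was not tested.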

Other observations

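CDKN2A, the cell cycle inhibitor locus best known as a Polycomb target, was at 0.459 FPKM or lower in the 3 A673 libraries and at 126.6 FPKM with DMSO, 143.2 FPKM at 50 nM and 168.1 FPKM at 200 nM in SKNMC. CDKN2B, another listed target, was at 0.00516 FPKM in A673 and 0.432 FPKM in SKNMC with DMSO. RNA levels cannot tell a silenced gene from one missing from the DNA. Of the 10 Polycomb genes, 9 were higher in SKNMC with DMSO, against 56.0% of genes active in either line. BMI1 was the exception, at 23.0 FPKM in SKNMC and 50.6 FPKM in A673. Under the ribosomal protein scaling EED was lower in SKNMC as well, at a log2 ratio of -0.23. The values are those of 2 cell lines with 1 library per condition, and no relation between them was tested.

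FLI1, the ETS partner of the fusion, had 31.5, 14.95 and 4.26 FPKM in A673 and 27.3, 15.2 and 4.56 FPKM in SKNMC, with DMSO, 50 nM and 200 nM. EZH2 over the same libraries had 41.4, 47.1 and 25.9 FPKM and 84.3, 78.3 and 53.3 FPKM.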
